A study of Homo sapiens with 71 samples.

Results

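HepG2 cells kept in medium made with surface water from the site coded IHIN were compared with HepG2 cells kept in medium made with purified laboratory water. The comparison holds 4 IHIN libraries and 8 purified-water libraries (CTRL), out of 71 libraries in 17 groups, and each library was placed by the site code in its label. The remaining 59 libraries come from the other 15 sites of the series, which by its title monitors contaminants in tributaries of the Great Lakes. HepG2 is a single human hepatoma line that keeps many functions of hepatocytes. RNA was read with TempO-Seq, a targeted assay in which pairs of detector probes are joined on their RNA and the joined probes are sequenced. For the IHIN group, concentrated medium was mixed with site water passed through a 0.7 µm filter, so that site water made up 75% of what the cells received, and the dishes stood for 48 hours. For the CTRL group, the same medium was mixed with purified water filtered at 0.1 µm. All groups share the line, the supplements with serum and antibiotics, and the 72 hours of culture before exposure, and all dishes were seeded from 1 pool of cells. The labels call the dishes biological replicates, so p-values here measure the spread between dishes of 1 pool. The labels also speak of 16 control dishes, of which 8 libraries are analysed here.

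Several regulatory programmes recur below. YAP is a transcriptional coactivator held in check by the Hippo kinases LATS1 and LATS2; in the nucleus it joins TEAD proteins on DNA, and ANKRD1 and CCN2 are its standard target genes. The unfolded protein response adjusts chaperones of the endoplasmic reticulum, with HSPA5 (BiP) as its central member, and NRF2 drives genes that handle oxidants. Metallothioneins are small metal-binding proteins whose genes are switched on by zinc, cadmium and copper, and liver cells make them readily.

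The promoters of the 3 YAP targets that changed are shown because ANKRD1 and CCN2 passed the test whichever single library was left out, and LATS2 was the other member of their list that passed. The sequences are from RefSeq (GRCh38.p14), run 5′ to 3′ on the strand of the gene from 250 bases before RefSeq's start, and capitals mark GGAATG, the core that TEAD proteins bind.
ANKRD1, chr10:90921038-90921337, minus strand: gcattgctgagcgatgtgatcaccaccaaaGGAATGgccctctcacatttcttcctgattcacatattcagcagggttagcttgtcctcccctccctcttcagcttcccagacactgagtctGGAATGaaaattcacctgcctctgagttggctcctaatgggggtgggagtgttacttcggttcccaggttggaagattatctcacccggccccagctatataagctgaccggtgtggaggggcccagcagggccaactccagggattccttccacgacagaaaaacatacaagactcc
CCN2, chr6:131951323-131951622, minus strand: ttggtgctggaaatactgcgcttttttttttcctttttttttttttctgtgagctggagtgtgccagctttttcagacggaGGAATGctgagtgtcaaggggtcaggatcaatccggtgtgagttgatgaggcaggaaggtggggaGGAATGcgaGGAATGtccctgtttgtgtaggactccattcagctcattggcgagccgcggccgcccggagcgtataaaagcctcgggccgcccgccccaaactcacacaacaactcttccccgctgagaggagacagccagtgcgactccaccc
LATS2, chr13:21061537-21061836, minus strand: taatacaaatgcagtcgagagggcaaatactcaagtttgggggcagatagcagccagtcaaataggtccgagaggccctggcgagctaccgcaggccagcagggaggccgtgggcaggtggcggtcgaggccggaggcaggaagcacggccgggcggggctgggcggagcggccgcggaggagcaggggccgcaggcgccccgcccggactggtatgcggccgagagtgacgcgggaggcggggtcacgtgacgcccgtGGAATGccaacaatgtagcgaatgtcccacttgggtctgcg
Searched on both strands, GGAATG occurred 2 times in the ANKRD1 window, at -220 and -128 from RefSeq's start. It occurred 3 times in the CCN2 window, at -169, -104 and -95. The LATS2 window held it 1 time, at position 10 after the start. The gene positions given further on are from GENCODE, whose starts differ from these for ANKRD1 and LATS2: by GENCODE the -128 match lies inside ANKRD1 and the LATS2 match lies before the gene. Of 35116 promoter windows of the same length, 14% held the core at least 1 time and 1.37% held it 2 or more times. Of the 10 YAP targets tested, 8 had a window in the table. Of the 5 of these that were not called, NUAK2 held the core 2 times, AMOTL2, AJUBA and AXL each held it 1 time in 1 of their 2 windows, and F3 did not hold it, so the core was not confined to the called genes. A match is a description of the letters and not a bound site.

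Total counts ran from 4105929 to 8106563 in the IHIN libraries and from 8182773 to 14520089 in the CTRL libraries, so depth did not overlap between the groups. Transcripts that define HepG2 and hepatocytes (ALB, AFP, APOA1, APOB, AHSG, FGB and HNF4A) were present in every library of both groups. Of the markers of other cell types, PTPRC, COL3A1 and KRT14 had 0 counts in all 12. CD14, PECAM1 and CDH5 had 288, 159 and 114 counts over the 12 libraries. CD3E, CD79A, COL1A1, DCN, LUM and KRT5 had 1 to 15 counts each. Immune markers summed to 1065 to 1415 CPM (counts scaled to equal library size) in IHIN and 1624 to 2223 CPM in CTRL. Most of that sum was LYZ, and CD3D stood at 130 to 167 CPM in IHIN and 70.2 to 156 CPM in CTRL. CTRL 1 lay farthest from its own group, with an SD of 0.37 on the log2 scale over 4210 well-measured features, against 0.17 to 0.26 in the other 7 CTRL libraries and 0.18 to 0.30 in IHIN.

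In IHIN water the YAP targets ANKRD1 and CCN2, the chaperone HSPA5, the basement membrane chain LAMA5, the junction protein DSP and the secreted enzyme LYZ were lower than in purified water, and the centromere protein CENPB was higher. ANKRD1, CCN2 and LAMA5 fell by 1.02 to 1.26 on the log2 scale, and most other changes were smaller. Of 6714 features tested, 326 passed an adjusted p of 0.05 (4.86%; edgeR quasi-likelihood test with Benjamini-Hochberg adjustment), with 109 higher (1.62%) and 217 lower (3.23%) in IHIN. Such features are called below. The median absolute log2 change of the called features was 0.50. The median signed change over all features tested was 0.01. Only 15 of the 326 passed 1 on the log2 scale, 3 higher and 12 lower. The libraries of the groups did not overlap for 373 features (5.56%), with 186 higher (2.77%) and 187 lower (2.79%) in IHIN, and 194 of these were called.

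The count of calls depended on which libraries and model were used. It was 20 without IHIN 2, 22 without IHIN 3, 190 without IHIN 1, and between 155 (without CTRL 6) and 684 (without CTRL 2) when a CTRL library was left out; without CTRL 1 it was 433. It was 2 where all 71 libraries shared their estimate of spread, 7 without the nearly empty library VROH 2, and 38 without 2 further libraries (CRMI 1 and SRMI 3). All 326 features kept their direction in every fit in which they were tested. These fits reuse the libraries by which the 326 were chosen, so their direction was largely fixed in advance and is no test. Of the 326, 20 stayed called without IHIN 2 and 22 without IHIN 3. Losses of single calls without these 2 libraries, given below, are therefore shared by most of the 326. With the CTRL libraries thinned to the median IHIN total, 340 features were called, 283 of them among the 326. In bulk RNA, fewer cells of a type and less RNA per cell cannot be told apart. The plot of all features tested shows the spread.

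**Figure D1:**
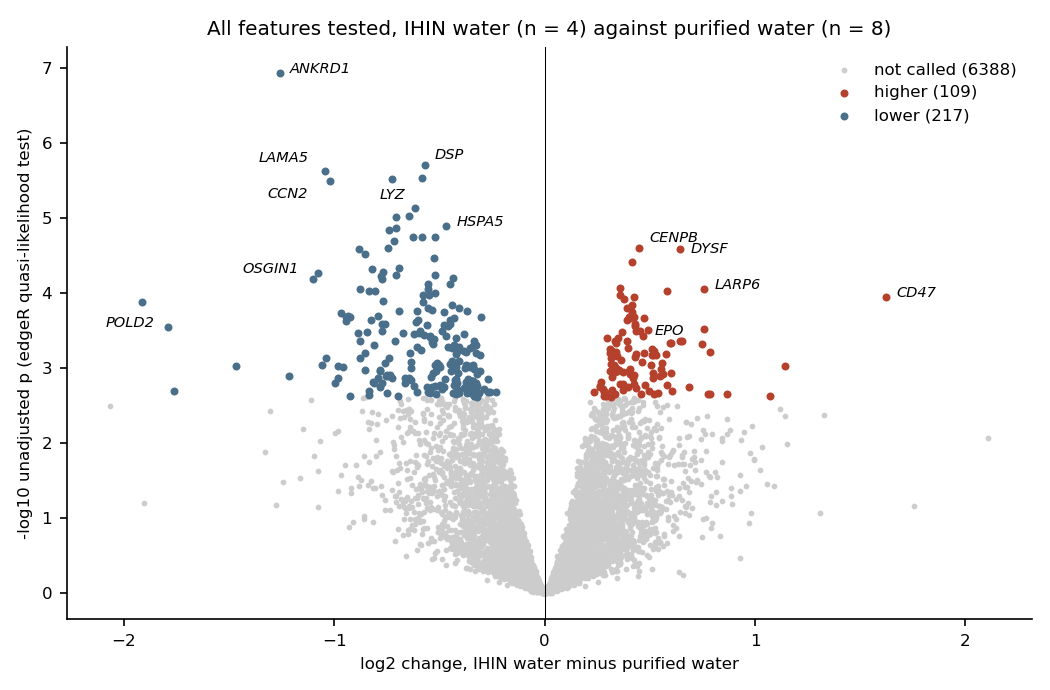
Each point is a feature, with its log2 change (IHIN water minus purified water) on the x axis and the -log10 of its unadjusted p from edgeR on the y axis. Blue points are the 217 features called lower, red points the 109 called higher and grey points the 6388 not called; ANKRD1 has the smallest p.

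In all 12 fits that each left out 1 library, 18 features stayed called, 17 of them lower in IHIN and 1 higher. These 18 were also called by DESeq2, without the filter on low counts, with another scaling and with thinned controls. Those fits reuse the libraries by which the 18 were picked, so this was largely fixed in advance and is no test. Not all 18 held in other models. With the replicate number as a block 1 feature in all was called, with all 71 libraries 2, and without VROH 2 7. In the blocked fit, CTRL libraries without an IHIN library of their number add nothing to the contrast, so it rests on fewer libraries. Of the 18, CENPB, ETFA, ATXN10, GPX3, ETS2, KIAA1958 and KYAT1 lie outside the naming rule and were chosen after their values were seen.

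ANKRD1, a nuclear ankyrin repeat protein whose gene responds to YAP (chr10:90912096-90921276, minus strand), had 186, 190, 246 and 198 CPM in the 4 IHIN libraries. In the CTRL libraries its lowest, median and highest values were 376, 488 and 693 CPM. Its log2 change was -1.26 ± 0.14 (SE; adjusted p = 0.000775, edgeR). No IHIN library reached the lowest CTRL library. ANKRD1 was also 1 of the 2 features called where all 71 libraries shared the spread. CCN2, which encodes a secreted matricellular protein (chr6:131948176-131951373, minus strand), had 145, 165, 162 and 156 CPM in IHIN and a lowest, median and highest of 261, 293 and 492 CPM in CTRL. It fell by 1.02 ± 0.15 on the log2 scale (SE; adjusted p = 0.00361, edgeR), and the groups did not overlap.

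LATS2, a Hippo kinase whose gene is also a YAP target (chr13:20973032-21061547, minus strand), had 7.79, 13.5, 10.1 and 12.7 CPM in IHIN and 14.4, 19 and 32.4 CPM as lowest, median and highest in CTRL. It fell by 0.85 ± 0.20 on the log2 scale (SE; adjusted p = 0.0282, edgeR), with no overlap between the groups. Its call was lost without IHIN 1, IHIN 2 or IHIN 3, where the adjusted p reached 0.0984. Of the 10 YAP targets tested, these 3 were called, all lower (against 3.23% of all features tested). The median log2 change of the list was -0.36. Lists here and below were chosen with earlier results of these data known, so such shares describe them and are no test. IHIN lay below every CTRL library for 5 of the 10 (against 2.79% of all features tested). CCN1, a relative of CCN2, and AMOTL2, a scaffold of the Hippo pathway, were the other two and missed the threshold, with log2 changes of -1.11 and -0.47 and adjusted p of 0.0506 and 0.0519 (edgeR). CCN1 rested on few counts, at 1.17 ± 0.457 CPM in IHIN (SD, n = 4) and 2.78 ± 0.814 CPM in CTRL (SD, n = 8).

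The other YAP targets showed smaller values. AJUBA, a LIM-domain scaffold, stood at 81.0 ± 0.647 CPM in IHIN and 95.9 ± 12.9 CPM in CTRL (SD, n = 4 and 8). AXL, a receptor tyrosine kinase, had a log2 change of -0.26 and CRIM1, a membrane protein that binds growth factors, -0.07. F3, the tissue factor that starts coagulation, had a positive value of 0.44 (adjusted p = 0.135, edgeR), so the list did not move as a block. The plot of list members sets these values beside those of 3 other lists.

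**Figure D2:**
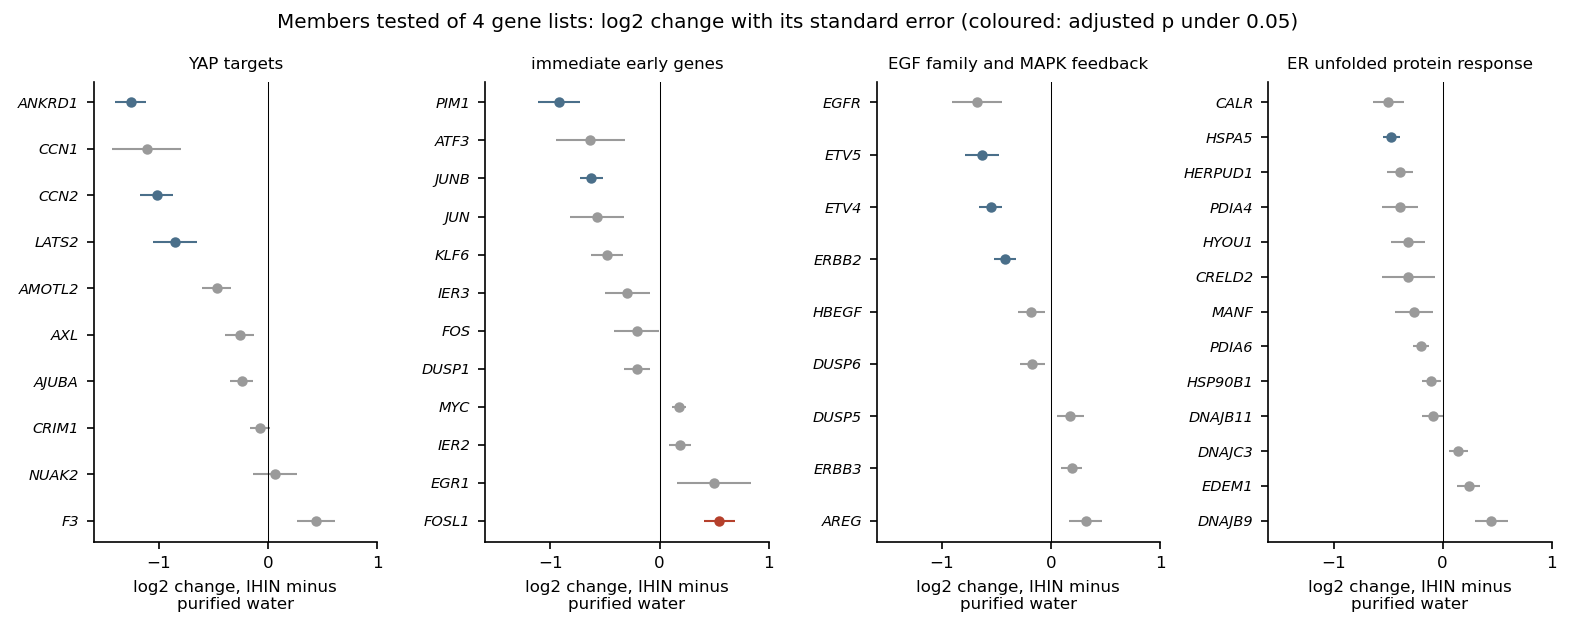
Each row is a list member that was tested and each point its log2 change (IHIN water minus purified water), with a bar of 1 standard error; blue marks a lower and red a higher member with an adjusted p under 0.05. ANKRD1 (-1.26), CCN2 (-1.02) and LATS2 (-0.85) lie farthest left among the called YAP targets, and most members of each list are grey.

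Genes of the basement membrane and of cell junctions were among the 18. LAMA5, the laminin alpha 5 chain of the basement membrane (chr20:62307955-62367312, minus strand), had 4.97, 7.66, 5.67 and 5.18 CPM in IHIN against 10.1, 12.2 and 14.1 CPM as lowest, median and highest in CTRL. Its log2 change was -1.04 ± 0.15 (SE; adjusted p = 0.00361, edgeR) and the groups did not overlap. DSP, the desmosome plaque protein desmoplakin (chr6:7541575-7586717, plus strand), had 892, 787, 854 and 886 CPM in IHIN and 1059, 1272 and 1421 CPM in CTRL, given in the same way. It fell by 0.57 ± 0.08 (SE; adjusted p = 0.00361, edgeR), again without overlap. Of 11 matrix and integrin genes tested, 2 were called, both lower (against 3.23% of all features tested): LAMA5 and LOX. LOX, an enzyme that cross-links collagen, stood at 726 ± 57.2 CPM in IHIN and 909 ± 64.3 CPM in CTRL (SD, n = 4 and 8). The call of LOX was lost without IHIN 2, IHIN 3 or IHIN 4 (adjusted p up to 0.108). The laminin chains LAMB1 (0.09) and LAMC1 (-0.14) were not called, and the list's median log2 change was 0.00.

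Secreted proteins made up another part of the 18. LYZ, the antibacterial enzyme lysozyme (chr12:69348341-69354234, plus strand), had 969, 962, 826 and 1166 CPM in IHIN and 1424, 1582 and 2032 CPM as lowest, median and highest in CTRL. It fell by 0.73 ± 0.11 on the log2 scale (SE; adjusted p = 0.00361, edgeR), and no library of the groups overlapped. GPX3, the extracellular glutathione peroxidase, had 268, 249, 252 and 288 CPM in IHIN against 321, 437 and 584 CPM in CTRL. LCN15, a member of the lipocalin family, had 104, 114, 102 and 118 CPM in IHIN against 148, 175 and 217 CPM in CTRL. Both fell without overlap, by 0.74 ± 0.12 and 0.71 ± 0.11 (SE; adjusted p = 0.00797 and 0.00724, edgeR).

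PTTG1IP, a membrane glycoprotein that binds securin, was expressed at 1065 ± 44.9 CPM in IHIN and 1598 ± 166 CPM in CTRL (SD, n = 4 and 8), a log2 change of -0.58 (adjusted p = 0.00361, edgeR). PLPPR1, a relative of the lipid phosphatases that sits in the plasma membrane, stood at 23.6 ± 2.51 CPM in IHIN and 36.9 ± 3.46 CPM in CTRL. It was the other feature called with all 71 libraries, with a log2 change of -0.65 here. Among transcription factors, ETS2 fell by 0.71 and JUNB, a subunit of AP-1, fell by 0.62. CKAP5, which builds spindle microtubules, fell by 0.62. Metabolic enzymes were also among the 18: ETFA, which passes electrons from fatty acid oxidation to the respiratory chain, fell by 0.71, and KYAT1, a kynurenine aminotransferase, fell by 0.88. ATXN10 (-0.52) and KIAA1958 (-0.58) complete the features that were lower besides HSPA5. Their highest adjusted p over the 12 fits was 0.0484, for KYAT1, KIAA1958, ATXN10, GPX3, ETS2, JUNB and CENPB alike, so several of the 18 sit close to the threshold.

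**Figure D3:**
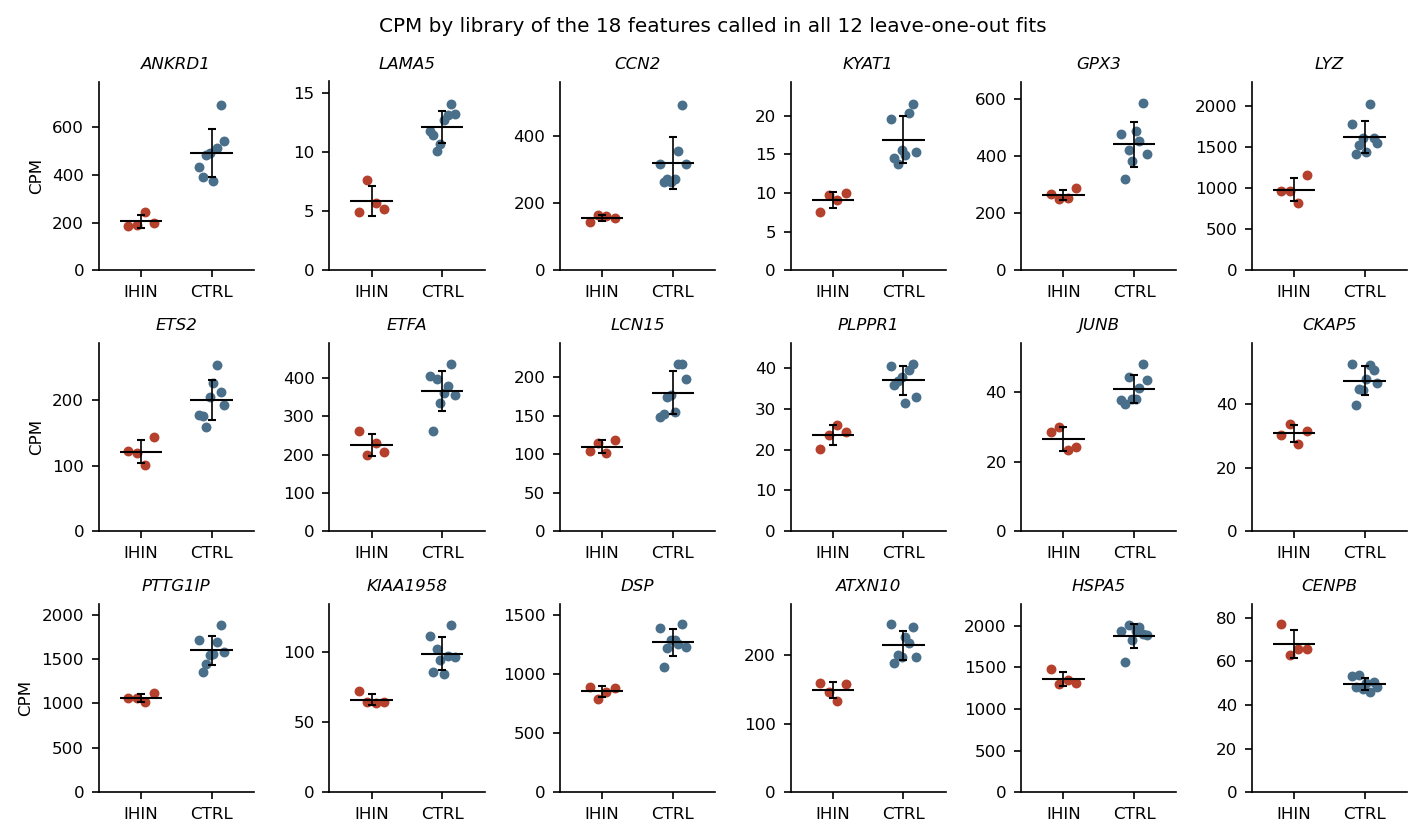
CPM of the 18 features called in all 12 leave-one-out fits, with each of the 4 IHIN libraries in red and each of the 8 CTRL libraries in blue; lines and bars are the mean and SD, and each y axis starts at 0. The groups do not overlap for any of the 18, and CENPB, at 62.7 to 77.0 CPM in IHIN and 46.0 to 53.6 CPM in CTRL, is the feature that is higher in IHIN.

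HSPA5 had the smallest p of the unfolded protein response list. This chaperone of the endoplasmic reticulum (chr9:125234853-125241330, minus strand) had 1479, 1298, 1345 and 1310 CPM in IHIN and 1558, 1915 and 2010 CPM as lowest, median and highest in CTRL. It fell by 0.47 ± 0.08 on the log2 scale (SE; adjusted p = 0.00797, edgeR), with no overlap. It was the only call among 13 members of the unfolded protein response list (against 3.23% of all features tested called lower). The list's median log2 change was -0.26. HERPUD1, which helps degrade misfolded proteins, had a value of -0.39 (adjusted p = 0.057, edgeR), while DNAJB9, a cochaperone of HSPA5, had a positive value of 0.45 (adjusted p = 0.0861, edgeR). PDIA5, a protein disulphide isomerase outside that list, had 9.30, 7.32, 8.38 and 6.79 CPM in IHIN and 11.3, 15.4 and 27.7 CPM in CTRL. It fell by 1.10 ± 0.21 (SE; adjusted p = 0.0133, edgeR), and its call was lost without IHIN 2 or IHIN 3 (adjusted p up to 0.0701).

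The integrated stress response showed no joint rise. ATF4, its transcription factor, was lower, at 359 ± 17.3 CPM in IHIN and 433 ± 30.1 CPM in CTRL (SD, n = 4 and 8), with a log2 change of -0.27 (adjusted p = 0.0398, edgeR). That call was lost when any of 7 libraries was left out: IHIN 1, IHIN 2, IHIN 3, CTRL 4, CTRL 6, CTRL 7 or CTRL 8. It was the only 1 of 15 tested members called, against 3.23% of all features tested called lower. DDIT3, the stress factor CHOP, stood at 103 ± 1.64 CPM in IHIN and 110 ± 11.5 CPM in CTRL. ASNS, asparagine synthetase, had 77.6, 45.0, 44.1 and 48.1 CPM in IHIN and 16.9, 46.6 and 71.5 CPM as lowest, median and highest in CTRL. Its value of 0.19 rested on IHIN 1 and was -0.05 without it.

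The oxidant-handling genes that were called were lower. Of 14 NRF2 targets tested, 4 were called, all lower (against 3.23% of all features tested), and the median log2 change was -0.18. OSGIN1, an oxidative stress-induced growth inhibitor (chr16:83948282-83966332, plus strand), had 3.89, 5.45, 5.17 and 7.40 CPM in IHIN and 9.25, 11.5 and 18.3 CPM as lowest, median and highest in CTRL. It fell by 1.08 ± 0.20 on the log2 scale (SE; adjusted p = 0.0131, edgeR) without overlap. AKR1B10, an aldo-keto reductase, had 15.8, 9.37, 12.1 and 13.1 CPM in IHIN against 16.6, 19.9 and 24.6 CPM in CTRL, and fell by 0.69 ± 0.14 (SE; adjusted p = 0.0191, edgeR). FTL, the ferritin light chain, fell by 0.74. FTL has near-identical copies in the genome, so its counts are uncertain. The standard inducible targets HMOX1 (haem oxygenase) and NQO1 (a quinone reductase) were not called, with values of -0.29 and -0.07. The calls of OSGIN1, AKR1B10 and FTL were lost without IHIN 2 or IHIN 3, and that of FTL also without IHIN 1 or CTRL 6 (adjusted p up to 0.112).

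Growth factor signalling genes had 3 calls among 9 members tested, all lower (against 3.23% of all features tested), and a median of -0.18. ETV4, an ETS factor induced by the MAPK cascade, had 87.2, 84.3, 71.9 and 100.4 CPM in IHIN and 104, 121 and 152 CPM in CTRL as lowest, median and highest. It fell by 0.55 ± 0.11 on the log2 scale (SE; adjusted p = 0.0151, edgeR) without overlap. Its relative ETV5 fell by 0.63, at 71.1 ± 12.5 CPM in IHIN and 110 ± 23.4 CPM in CTRL (SD, n = 4 and 8), with overlap. ERBB2, a receptor of the EGF family, fell by 0.42, while DUSP6, a phosphatase that damps the same cascade, had a value of -0.17 that did not pass. Of 11 insulin and IGF genes, IGF1R, the IGF-1 receptor, and IGFBP3, an IGF carrier protein, were called lower, by 0.76 and 0.45, against the same 3.23%. IHIN 2 and IHIN 3 each ended all 5 of these calls when left out (adjusted p up to 0.134); ERBB2 and IGF1R were also lost without IHIN 1, ETV5 without IHIN 4 and IGF1R without CTRL 6.

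Immediate early genes went in both directions. Of 12 tested, JUNB and PIM1 were called lower (against 3.23% of all features tested) and FOSL1 higher (against 1.62%). PIM1, a survival kinase, had 9.52, 9.20, 9.85 and 14.6 CPM in IHIN against 15.7, 19 and 29.2 CPM in CTRL, and fell by 0.92 ± 0.20 on the log2 scale (SE; adjusted p = 0.0197, edgeR); the call was lost without IHIN 2 or IHIN 3 (adjusted p up to 0.0979). FOSL1, an AP-1 subunit like JUNB, was at 7.96 ± 0.918 CPM in IHIN and 5.49 ± 0.732 CPM in CTRL (SD, n = 4 and 8; log2 change 0.55, adjusted p = 0.0381, edgeR). It lost its call without any 1 of the 4 IHIN libraries or without CTRL 3, CTRL 6 or CTRL 8. FOS (-0.21), EGR1 (0.50) and MYC (0.18) were not called.

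Cell cycle genes gave few calls. PLK1, a mitotic kinase (chr16:23677656-23690367, plus strand), had 14.5, 10.6, 9.61 and 11.7 CPM in IHIN and 13.2, 22.8 and 33.7 CPM as lowest, median and highest in CTRL. It fell by 0.97 ± 0.20 on the log2 scale (SE; adjusted p = 0.0191, edgeR), although IHIN 1 lay inside the CTRL range, and it was the only call among 15 mitosis genes. MKI67, the proliferation marker Ki-67, had a value of -0.39 (adjusted p = 0.0625, edgeR), and the cyclin CCNB1 and the kinase CDK1 had 0.03 and 0.04. None of 16 DNA replication genes was called, and their median was 0.06. Of all features tested, 3.23% were called lower and 4.86% in either direction. Neither the mitosis count nor the replication count therefore sets its list apart. Of 15 p53 targets, PPM1D, a phosphatase that shuts the response down, fell by 0.81 and DDB2, a DNA damage sensor, fell by 0.42. They were the only calls of that list, against 3.23% of all features tested called lower. The p53 target CDKN1A, the inhibitor p21, was low, at 1.23 ± 0.804 CPM in IHIN and 1.45 ± 0.332 CPM in CTRL (SD, n = 4 and 8). PLK1, PPM1D and DDB2 lost their calls without IHIN 2 or IHIN 3, PPM1D also without IHIN 4, and DDB2 in 7 of the 12 fits (adjusted p up to 0.115).

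Hypoxia targets were split. P4HA1, a collagen prolyl hydroxylase, had 148, 70.9, 96.1 and 94.4 CPM in IHIN and 107, 201 and 267 CPM as lowest, median and highest in CTRL, and fell by 0.95 ± 0.20 on the log2 scale (SE; adjusted p = 0.0201, edgeR), with IHIN 1 inside the CTRL range. NDRG1, a stress-responsive gene, fell by 0.34 and LOX by 0.32. PDK1, a kinase that blocks pyruvate entry into mitochondria, was higher by 0.56, at 20.3 ± 3.65 CPM in IHIN and 13.9 ± 2.04 CPM in CTRL (SD, n = 4 and 8; adjusted p = 0.033, edgeR). These were 1 call higher and 3 lower of 13 tested, against 1.62% and 3.23% of all features tested. CA9, carbonic anhydrase IX and a sensitive hypoxia marker, was not called (-0.37). Of 15 glycolytic enzymes, ALDOA (an aldolase) and PGAM1 (a phosphoglycerate mutase) were called lower, by 0.38 and 0.42, against the same 3.23%. GAPDH (-0.03) and LDHA (0.18) were not called. All 6 calls of these lists were lost without IHIN 2 or IHIN 3; NDRG1 was lost in 8 of the 12 fits, ALDOA in 7, PDK1 in 5 and LOX in 3.

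Other lists held 1 or 2 calls each, against 3.23% of all features tested called lower and 1.62% called higher. Of 9 WNT targets tested, GLUL (glutamine synthetase) and NOTUM (a WNT-inactivating enzyme) were called lower, by 0.53 and 0.42. That list did not move as a block: 4 values were above 0 and 5 below, with a median log2 change of -0.02. GLUL had 121, 98.8, 98.8 and 107 CPM in IHIN against 128, 153 and 172 CPM in CTRL, without overlap. IFITM1, an interferon-induced membrane protein, fell by 0.85 and was the only call of 11 interferon genes. ATP5F1B, the catalytic subunit of ATP synthase, fell by 0.77 and was the only call of 17 oxidative phosphorylation genes. C3, the central complement protein, fell by 0.34. ABCB1, the drug efflux pump, and NRIP1, a nuclear receptor corepressor, were higher by 0.35 and 0.27. GLUL, IFITM1 and ATP5F1B were lost only without IHIN 2 or IHIN 3 (adjusted p up to 0.0701), C3 also without IHIN 4. The calls of NOTUM, ABCB1 and NRIP1 were lost in 6 to 9 of the 12 fits.

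Counting a gene in several lists a single time, 410 genes were tested over 43 lists. Of these, 4 were called higher (0.976%, against 1.62% of all features tested) and 34 lower (8.29%, against 3.23%), and their median log2 change was -0.09. The lists were chosen with earlier results of these data known, so these shares describe the listed genes and are no test. At the 4.86% of all features tested that were called, a short list can hold no call, and the lists with 0 calls numbered 19. Among them were AHR targets (3 tested, with CYP1A1, the dioxin-inducible cytochrome, at 76.0 ± 16.7 CPM in IHIN and 77.5 ± 14.3 CPM in CTRL; SD, n = 4 and 8), heat shock genes (11 tested, median 0.00) and osmotic stress genes (5 tested, median 0.05). Hepatocyte transcription factors (13 tested, median -0.07), secreted hepatocyte proteins (12 tested, median 0.04), oncofetal genes (9 tested, median -0.01) and caspases with death receptors (12 tested, median 0.12) also had none. Fatty acid synthesis, bile acid, NF-kB, glucocorticoid, lysosome, lipid droplet and histone genes had none either, nor had endothelial, fibroblast or squamous markers. At single genes, ALB (albumin) had a value of 0.17, HAMP (the iron hormone hepcidin) -0.16 and PLIN2 (a lipid droplet coat) 0.05, and ETNPPL (an ethanolamine phosphate lyase) -0.22. CPT1A, which admits fatty acids to mitochondria, had -0.50 and missed the threshold (adjusted p = 0.0642, edgeR).

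Metallothioneins missed the threshold as well. MT1G (chr16:56666731-56668065, minus strand) had 289, 360, 227 and 367 CPM in IHIN and 189, 224 and 297 CPM as lowest, median and highest in CTRL. Its log2 change was 0.44 ± 0.13 (SE; adjusted p = 0.0558, edgeR), and 2 of the 4 IHIN libraries lay inside the CTRL range. MT1M had 19, 33.9, 16.5 and 25.2 CPM in IHIN against 10.4, 15.4 and 22.4 CPM in CTRL, with a value of 0.56 ± 0.20 (SE; adjusted p = 0.0932, edgeR). MT2A had a value of 0.40 and MT1E -0.21. MT1F (16 counts in the 4 IHIN libraries and 46 in the 8 CTRL libraries) and MT1X (14 and 30 counts) were too low to test. MTF1, the transcription factor that senses zinc, had 0.21. Of 5 tested members, 0 were called, against 4.86% of all features tested, and the list's median was 0.40. A list this short can hold no call at that share, so the count says little about it.

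The median absolute log2 change was 0.42 among the 109 features called higher and 0.54 among the 217 called lower. CENPB, which binds centromeric satellite DNA (chr20:3783851-3786690, minus strand), had 77.0, 62.7, 65.8 and 65.8 CPM in IHIN and 46.0, 49.3 and 53.6 CPM as lowest, median and highest in CTRL. Its log2 change was 0.45 ± 0.08 (SE; adjusted p = 0.00861, edgeR), without overlap. DYSF, the membrane repair protein dysferlin (chr2:71453722-71686768, plus strand), had 35.9, 39.2, 42.4 and 39.4 CPM in IHIN and 19.9, 25.7 and 31.5 CPM in CTRL. It rose by 0.65 ± 0.11 (SE; adjusted p = 0.00861, edgeR) without overlap, and lost its call without IHIN 2 or IHIN 3 (adjusted p up to 0.0567). LARP6, an RNA-binding protein that acts on collagen mRNA, rose by 0.76, at 10.9 ± 1.24 CPM in IHIN and 6.45 ± 1.01 CPM in CTRL (SD, n = 4 and 8). EPO, the hormone erythropoietin, had 23.6, 22.7, 26.1 and 25.5 CPM in IHIN and 15.6, 16.9 and 20.1 CPM in CTRL, and rose by 0.47 ± 0.10 (SE; adjusted p = 0.0197, edgeR). LARP6 and EPO also lost their calls without IHIN 2 or IHIN 3.

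LGALS3, the lectin galectin-3, was among the more abundant transcripts that rose, with 1956, 2662, 3049 and 2639 CPM in IHIN and 1125, 1740 and 2097 CPM as lowest, median and highest in CTRL (log2 change 0.58 ± 0.14, SE; adjusted p = 0.0282, edgeR). IHIN 1 lay inside the CTRL range. Also called higher were PAEP, the lipocalin glycodelin (0.65), NEK3, a NIMA-related kinase (0.79), and PIGC, an enzyme of GPI anchor synthesis (0.76). DSCAML1, a cell adhesion molecule (0.60), BORCS8, a subunit of a complex that positions lysosomes (0.55), CLGN, a chaperone of the endoplasmic reticulum (0.45), and C17orf75 (0.51) were called higher too. The largest rises also took in KRR1, a ribosome assembly factor (0.61), KIF1BP, which binds a kinesin (0.78), PIBF1, a centrosome protein (0.78), DMAC2L, a mitochondrial protein (0.69), and MFSD5, a membrane transporter (0.60). The last 5 lost their call in 7 to 9 of the 12 fits, LGALS3, NEK3, PAEP, PIGC, DSCAML1, BORCS8 and CLGN in 3 or 4 each, and C17orf75 in 6, with adjusted p up to 0.183.

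Some of the largest fitted changes rested on few counts. POLD2, a subunit of DNA polymerase delta, had 1.08, 2.04, 1.48 and 4.32 CPM in IHIN (58 counts in all) and 4.74, 7.0 and 14.8 CPM in CTRL (712 counts), with a log2 change of -1.79 ± 0.39 (SE; adjusted p = 0.0214, edgeR). Outside the naming rule and chosen after their values were seen, CDCA8, a subunit of the chromosomal passenger complex, had 10 counts in IHIN and 138 in CTRL (-1.91), DAGLB, a diacylglycerol lipase, 9 and 113 counts (-1.76), and CD47, a surface protein that restrains phagocytes, 55 and 65 counts (1.62). CLU, the secreted chaperone clusterin, fell by 1.21, at 7.39 ± 2.33 CPM in IHIN and 17.5 ± 7.18 CPM in CTRL (SD, n = 4 and 8), and DIAPH2, a formin, fell by 1.47, with overlapping libraries for both. HLA-C, a transplantation antigen with near-identical relatives, fell by 0.98, ASMTL by 1.00, MYORG by 0.81, PPP2CA, a catalytic subunit of protein phosphatase 2A, by 0.82, and ATXN1L by 0.86. POLD2, CDCA8, CD47, MYORG and PPP2CA lost their calls only without IHIN 2 or IHIN 3; HLA-C and DIAPH2 lost them in 5 of the 12 fits, CLU and ATXN1L in 6, ASMTL in 7 and DAGLB in 8 (adjusted p up to 0.15).

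IHIN was next set against the mean of the other 15 sites, without the CTRL libraries in the contrast. Of 6943 features, 114 were called (1.64%), 52 higher (0.749%) and 62 lower (0.893%) in IHIN. The count was 40 without IHIN 1, 5 without IHIN 2, 6 without IHIN 3 and 5 without IHIN 4, and it was 5 with VROH 2 and 493 without VROH 2, CRMI 1 and SRMI 3. This contrast shares the 4 IHIN libraries with the first, so the 2 are not independent. LYZ was lower at IHIN by 0.76 ± 0.14 on the log2 scale (SE; adjusted p = 0.00317), ANKRD1 by 0.77 ± 0.15 (adjusted p = 0.0069), GLUL by 0.57 ± 0.12 (adjusted p = 0.0091) and AKR1B10 by 0.92 ± 0.19 (adjusted p = 0.0113; all edgeR). CCN2 (-0.80), LATS2 (-0.88), HSPA5 (-0.41) and DSP (-0.61) were called lower as well, while LAMA5 had -0.93 and missed the threshold (adjusted p = 0.0544, edgeR).

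DYSF and LGALS3 were higher at IHIN than at the mean of the other sites, by 0.97 ± 0.21 and 0.86 ± 0.19 on the log2 scale (SE; adjusted p = 0.0133 for both, edgeR). GPD1, the cytosolic glycerol-3-phosphate dehydrogenase, was called higher here, by 0.64 ± 0.15 (SE; adjusted p = 0.0194, edgeR), and missed the threshold against purified water, where its value was 0.42 (adjusted p = 0.0512, edgeR). CYP2E1, a cytochrome of alcohol metabolism listed among the WNT targets and chosen after its value was seen, was called higher (1.01, adjusted p = 0.0459, edgeR). MT1G changed sign between the 2 contrasts: it was lower at IHIN than at the mean of the other sites (-0.41 ± 0.11, SE; adjusted p = 0.0459, edgeR), with the value of 0.44 against purified water given above.

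Scaled over 70 libraries, ANKRD1 averaged 202 ± 27.0 CPM at IHIN (SD, n = 4) and 484 ± 99.4 CPM in CTRL (SD, n = 8). The other 15 sites lay on both sides of CTRL, with 8 site means between 152 and 286 CPM and 7 between 567 and 731 CPM, and none between 286 CPM and the CTRL mean. IHIN ranked the sixth from the lowest of 16 sites, beside GRMI at 191 ± 36.5 CPM (SD, n = 4) and MIWI at 203 ± 17.1 CPM (SD, n = 3), whose libraries overlapped those of IHIN. CCN2 had the same layout, with IHIN at 155 ± 8.53 CPM (SD, n = 4), 8 other sites at 126 to 234 CPM and 7 at 398 to 741 CPM. HSPA5 at IHIN, 1338 ± 87.6 CPM (SD, n = 4), was above MAWI alone among the 15, by less than its own spread, and LYZ at IHIN, 966 ± 135 CPM (SD, n = 4), was above CRMI alone. The mean of the other 15 sites is therefore a mean over sites on both sides of CTRL. Whether the sites share a day, plate or run is not given in the labels, and its part in these values was not tested.

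DYSF ran the other way, with IHIN the highest of the 16 sites at 38.6 ± 2.51 CPM (SD, n = 4), above GRMI at 35 ± 6.58 CPM (SD, n = 4) by less than the spread of GRMI. LGALS3 was also highest at IHIN, with 2537 ± 442 CPM (SD, n = 4), beside GRMI and MIWI, whose libraries overlapped those of IHIN. LATS2 averaged 10.8 ± 2.52 CPM at IHIN and 12.1 ± 0.707 CPM at GRMI (SD, n = 4 each); IHIN had the lowest mean, but its libraries overlapped those of GRMI, MROH, MIWI and ORNY among others. MT1G at IHIN, 306 ± 64.3 CPM (SD, n = 4), was above MIWI and VROH and below the other 13 sites, of which BRWI was highest at 835 ± 89.1 CPM (SD, n = 4). All 15 other site means of MT1G were above the CTRL mean of 226 CPM. HAMP at IHIN, 18.9 ± 2.54 CPM (SD, n = 4), lay within the range of site means, from 1.28 CPM at LRMN to 26.6 CPM at VROH. The plot of libraries by site shows these layouts.

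**Figure D4:**
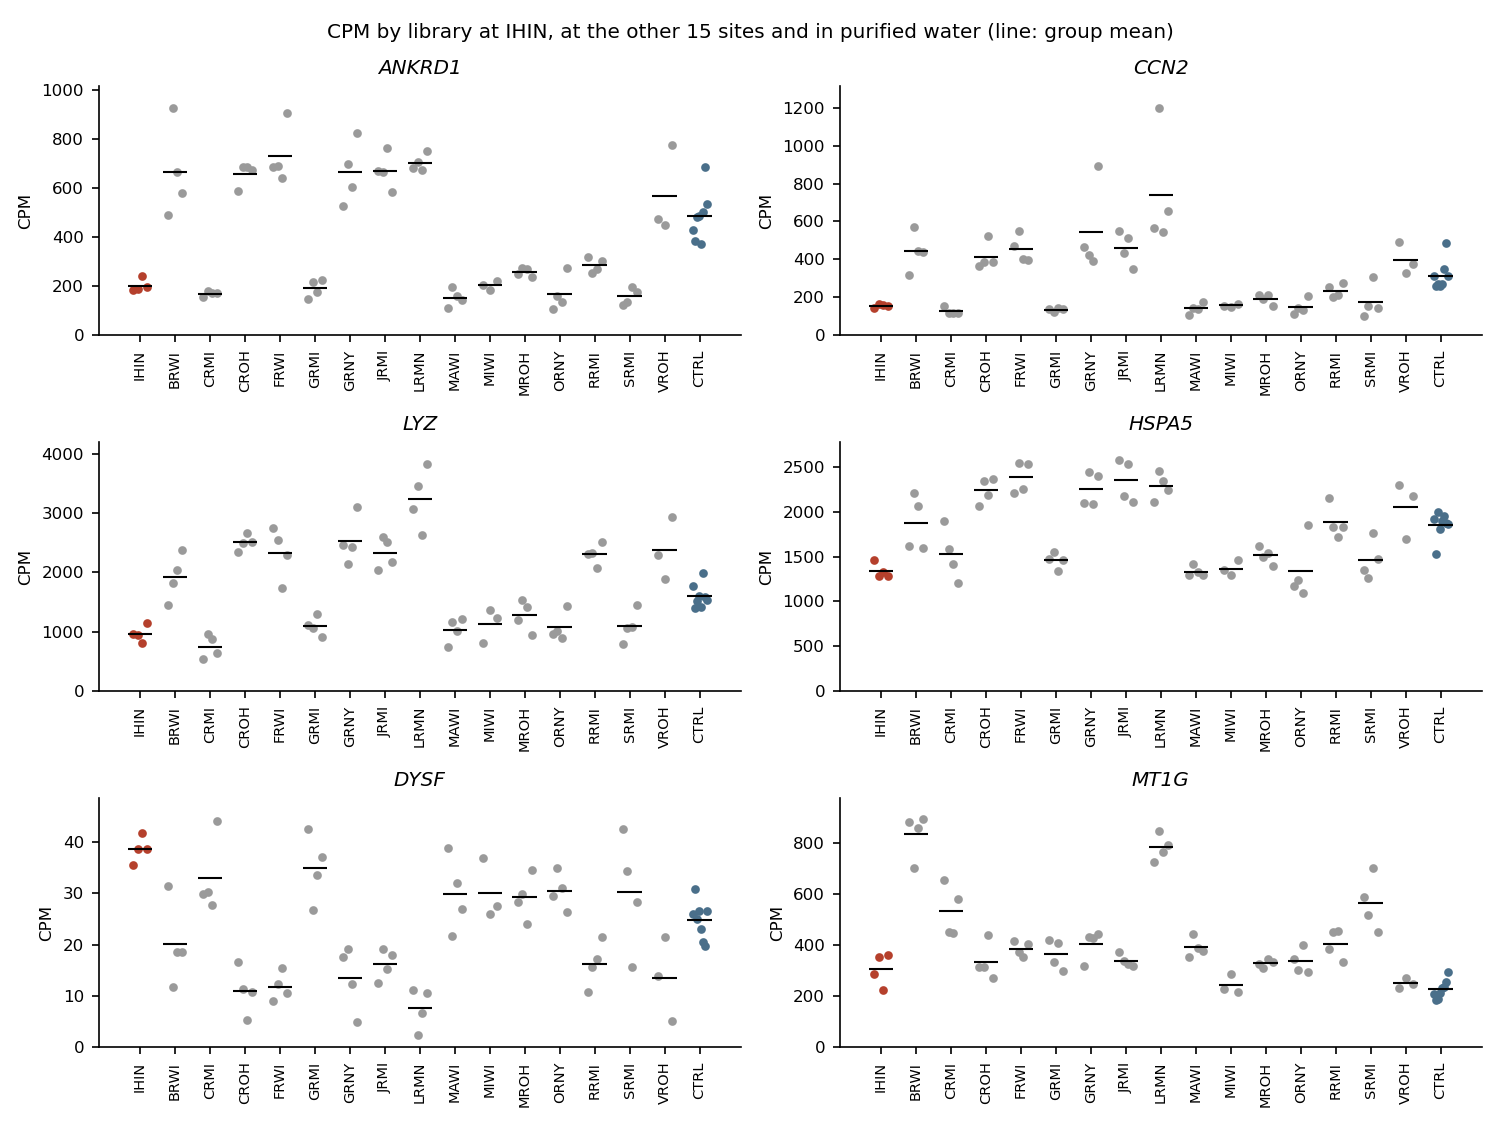
CPM of 6 genes in each library at IHIN (red), at the other 15 sites (grey, VROH 2 left out) and in purified water (blue), scaled over 70 libraries, with a line at each group mean and y axes from 0. For ANKRD1, IHIN averages 202 CPM and lies with the 8 other sites at 152 to 286 CPM, while the 7 remaining sites lie at 567 to 731 CPM and CTRL at 484 CPM.

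Among the 89 named genes, 48 were called lower against purified water, and for 22 of these IHIN was the lowest of the 16 sites; 21 were called higher, and for 14 of these IHIN was the highest. The named genes were chosen in part by these contrasts, so these counts describe them and are no test. The genes at which IHIN was lowest include PTTG1IP, CKAP5, PLK1, ETV4, AKR1B10, IGF1R, PGAM1 and LATS2. Those at which it was highest include DYSF, LGALS3, EPO, NEK3, PIGC, DSCAML1, BORCS8 and CLGN. These ranks are of site means and were not tested, and some are near ties: PGAM1 averaged 99.0 CPM at IHIN and 99.1 CPM at GRMI, ETV4 84.7 CPM at IHIN and 86.5 CPM at MAWI, and CLGN 53.7 CPM at IHIN and 52.1 CPM at GRMI. DSCAML1 was another near tie, with 25.1 CPM at IHIN and 24.6 CPM at RRMI. It was not called against the mean of the other sites (adjusted p = 0.434, edgeR). ANKRD1, CCN2, JUNB, LCN15 and PLPPR1, which stayed called against purified water in all 12 fits, were not extreme among the sites, with ranks of 5 to 7 from the lowest.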

How the data were processed

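TempO-Seq libraries of HepG2 cells were analysed from 1 table of expected counts per gene symbol, which the authors deposited under the name of normalized data. Per the submitters' processing notes, reads were handled with Salmon against GRCh38; its version, the probe positions and any scaling step are not given in these sources. Each library's low values sit on steps of 0.9945 to 1.004, taken as 1 read: a median of 93.4% of the values below 20 were whole steps to within 0.02. The values were therefore rounded to whole counts. The table is held in part, as 31012 complete entries with symbols up to RAI1-AS1; later symbols are not analysed here. Of these, 10684 had counts in the 12 IHIN and CTRL libraries.

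Features were tested with edgeR 4.0.16 in R 4.3.3 (TMM scaling, filterByExpr with a minimum count of 10, quasi-likelihood test, Benjamini-Hochberg adjustment over all features tested). The 12 libraries of IHIN and CTRL alone entered the fit against purified water, so other sites did not enter its estimate of spread. VROH 2 held 8872 counts, 0.153% of the median library. IHIN was set against the unweighted mean of the other 15 sites in a model of 17 groups without VROH 2. CPM are TMM-scaled. Standard errors are the log2 change divided by the square root of the F statistic. DESeq2 1.42.0, RLE scaling, no filter, a replicate block, thinned controls, joint models and leaving out each library were alternatives. The tests were first tried on simulated counts with the same spread for all features, a simpler setting than these data. No result here rests on that trial.

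Gene lists and named genes were chosen with earlier results of these data known. Named were, among called features with at least 5 CPM in a group, every IHIN library on 1 side of the CTRL mean and a symbol other than LOC, up to 12 largest rises and 12 largest falls; the 10 smallest p-values; up to 4 called members of each list; up to 8 rises and 8 falls called in both contrasts; and a set of fixed genes. Some called or listed genes are not reported here. Gene positions are from GENCODE 29 (GRCh38), and DMAC2L had none there. No pair of libraries agreed within sampling noise (lowest chi-square per degree of freedom 4.58 in IHIN and 8.79 in CTRL). Counting error limits features of few counts, and PCR reads are not independent molecules.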

Additional observations from a re-analysis of the deposited data

Results flagged for a closer look

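Across 106 features and the library totals, 214 groups were searched for a library that stands apart from the rest of its group, and 13 such gaps were found, 7 in IHIN and 6 in CTRL. Chance flags about 1 in 20 groups. Each value below is the gap to the nearest library divided by the range of the group.

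In IHIN, library 1 was high for ASNS (0.880; 77.6 CPM, next 48.1 CPM) and for KIAA1958 (0.854; 72.0 CPM, next 64.8 CPM), and low for AXL (0.927; 31.8 CPM, next 51.0 CPM). Library 3 was low for CLU (0.836; 3.94 CPM, next 8.18 CPM) and high for MT1E (0.918; 15.5 CPM, next 11.9 CPM). Library 2 was low for ETNPPL (0.832; 0.852 CPM, next 1.48 CPM), and library 4 was high for PIM1 (0.878; 14.6 CPM, next 9.85 CPM).

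In CTRL, library 7 was high for 3 genes that were lower in IHIN: CCN2 (0.592; 492 CPM, next 355 CPM), LATS2 (0.570; 32.4 CPM, next 22.1 CPM) and PDIA5 (0.536; 27.7 CPM, next 18.9 CPM). Library 6 was high for OSGIN1 (0.645; 18.3 CPM, next 12.4 CPM). Library 2 was low for HSPA5 (0.586; 1558 CPM, next 1823 CPM) and library 5 for CDH2 (0.556; 34.1 CPM, next 39.9 CPM). CCN2 and HSPA5 stayed called without each of these libraries, and LATS2, PDIA5, OSGIN1 and CDH2 did too.

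IHIN water differed from the mean of the other 15 sites at 114 features (edgeR, adjusted p under 0.05), which the report describes.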

How the results depend on the processing

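The number of features called against purified water (326) was 670 by DESeq2, 1 with the replicate block (ANKRD1), 2 with all 71 libraries in the model, 7 without VROH 2 and 38 without VROH 2, CRMI 1 and SRMI 3 (36 of them among the 326). Leaving out 1 library gave 20 to 684. RLE scaling gave 344, thinned controls 340 and no filter on low counts 337, of which 21.1% were higher, against 33.4% of the 326. Against the other 15 sites (114), DESeq2 gave 302, no filter 64, VROH 2 kept 5, VROH 2, CRMI 1 and SRMI 3 left out 493, RLE scaling 114 and the replicate block 109; leaving out 1 IHIN library gave 5 to 40. Deviations of IHIN and CTRL libraries of the same number correlated at -0.42, 0.37, 0.10 and -0.18. Of the 4 IHIN libraries, 1 correlated best with its own number. So few values cannot decide whether libraries of the same number pair. In the blocked fit against purified water, CTRL libraries without an IHIN library of their number add nothing to the contrast.

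Values that changed sign were those of ASNS, which ranged from -0.048 to 0.31 when 1 library was left out (0.19 with all), CYP1A1, from -0.20 to 0.040 (-0.03 with all; 0.0087 with the replicate block), and HAMP, at 0.018 with the replicate block (-0.16 without). The cause of these differences was not tested. All 326 called features kept their direction in every fit in which they were tested, which is no test because the fits reuse the same libraries. Of the 326, 107 stayed called in at least 10 of the 12 fits that left out 1 library, and 89 were lost only without IHIN 2 or IHIN 3. IHIN libraries held fewer counts than CTRL libraries, and 13 called features had under 5 CPM in both groups.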
